A study of Homo sapiens with 4 samples.

Results

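The genes described here encode the core of TGF-beta and BMP signalling, measured in CAPAN2 cells, an established human line of pancreatic ductal adenocarcinoma. They were chosen by symbol. Of 47 listed genes, 46 had a probe set annotated to that symbol alone, among 19775 genes measured in all, and BMPR1A was not analysed here. Where a gene had several probe sets, as 36 did, the one with the highest mean over the arrays stood for it. Total RNA was measured on 4 arrays. The cells of 2 had received control lentivirus and those of the other 2 lentivirus with shRNAs against LLGL1, the human homologue of a fly polarity gene, all overnight and with hexadimethrine bromide. The labels call the arrays of a group biological replicates, name no separate cultures and do not give the number of shRNAs or clones. The titles and the authors' table write si before LLGL1, where the descriptions give shRNA.

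Ligands of this family are secreted dimers that bind a type II receptor kinase, which activates a type I receptor kinase. The type I receptor phosphorylates a receptor SMAD, which joins SMAD4, enters the nucleus and changes transcription. TGF-beta and activin act mainly through SMAD2 and SMAD3, and BMPs through SMAD1, SMAD5 and SMAD9. In the pancreas TGF-beta is known for restraining growth of ductal epithelium and for promoting epithelial-mesenchymal transition in carcinoma, where SMAD4 is often lost.

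The transcript of the targeted gene did not differ past the threshold, so each direction is given between arrays as labelled. LLGL1 read 6.83 and 6.86 (log2 signal) in its brightest probe set on the control arrays and 6.73 and 6.71 on the arrays labelled LLGL1 shRNA. The groups of that probe set did not overlap, and they were -0.12 apart on the log2 scale (95% interval -0.27 to 0.02, limma adjusted p = 0.22). The other 2 LLGL1 probe sets lay the other way, by 0.09 and 0.06 with overlapping groups, and averaging the 3 gave 0.0079. Of 10 epithelial and ductal markers none had a mean log2 signal below 3, while 7 of 10 fibroblast, 2 of 8 endothelial and 6 of 8 immune markers did. CDH1 (-0.47) and KRT19 (-0.61) of the epithelial list fell and KRT7 (1.62) rose on the log2 scale, and no marker of the other lists passed. For the epithelial list the log2 of the summed linear signals was 14.1 on each control array and 13.9 on each LLGL1 shRNA array. It was 6.50 to 6.52 and 6.49 to 6.68 for the fibroblast list. The endothelial list gave 6.16 to 6.17 and 6.27 to 6.29, and the immune list 5.74 to 5.75 and 5.78 to 5.81. Control probe sets for poly-A spikes, RNAs added before labelling, differed by a mean of -1.14 on the log2 scale and those for 18S ribosomal RNA by -1.97. With all probe sets tested together in limma, 2 of 24 spike probe sets and all 3 for 18S ribosomal RNA had an adjusted p below 0.05. The part of these shifts in the gene results was not tested. The 3 prime minus 5 prime signal, a measure of RNA integrity, was 3.11 to 3.15 for ACTB and 0.36 to 0.42 for GAPDH. On all arrays the 5 prime signal of ACTB was thus far below its 3 prime signal. The ACTB and GAPDH control probe sets differed between groups by a mean of 0.46 and 0.09, with none passing. In bulk RNA, fewer cells expressing a gene and less RNA per cell cannot be told apart.

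On the arrays labelled LLGL1 shRNA the ligand genes BMP6 and TGFB1 and the activin antagonist FST rose. The ligand TGFB2, the activin subunit INHBB, the BMP receptor BMPR2, the ubiquitin ligase SMURF2 and the target gene ID2 fell. These 8 of 46 genes (17.4%) had a limma adjusted p below 0.05, as did 6.28% of all genes. Higher calls were 6.52% of the members and 3.21% of all genes, and lower calls 10.9% and 3.07%. A difference of at least 2-fold was seen in 3 members (BMP6, TGFB1 and TGFB2), and in 0.678% of all genes. An unadjusted p below 0.05 was reached by 23 members (50%) and 28.1% of all genes. Only 5 of the 46 members had a mean log2 signal below 3, against 34% of all genes. These shares therefore compare genes of unlike brightness.

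The arrays of the groups did not overlap for 34 members (73.9%), where 52.4% of all genes did not. In 24 members (52.2%) both LLGL1 shRNA arrays lay below both control arrays, against 24.7% of all genes, and in 10 (21.7%) they lay above, against 27.7%. Among the 28 members with a mean log2 signal of at least 5, 19 lay wholly below and 4 wholly above, against 38.2% and 36.5% of all genes of that brightness. The log2 difference was below 0 in 27 members and in 46.5% of all genes. Its median was -0.09 over the members and 0.01 over all genes, and the median of its size 0.24 and 0.13. The median of the members was -0.04 with the probe sets of a gene averaged and -0.24 at a mean log2 signal of at least 5, where that of all genes was 0.01 and -0.0029.

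The number of calls depended on the processing. Median centring gave 5 higher and 6 lower members, against 4.83% and 4.68% of all genes, and cyclic loess the same numbers, against 6.04% and 4.56%. The mean of a gene's probe sets gave 4 higher and 5 lower, against 3.16% and 2.96% (6.12% in both directions). With trend and robust moderation 5 were higher and 18 lower, against 9.87% and 10% of all genes. Among genes of mean log2 signal at least 5, 2 members were higher and 17 lower, against 22.2% and 24.8%, and in the brighter part of the genes 2 and 18 of 34, against 19.5% and 20.8%. Leaving out any 1 array left 0 calls over all genes in limma, with 17 to 22 members at an unadjusted p below 0.05.

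**Figure D1:**
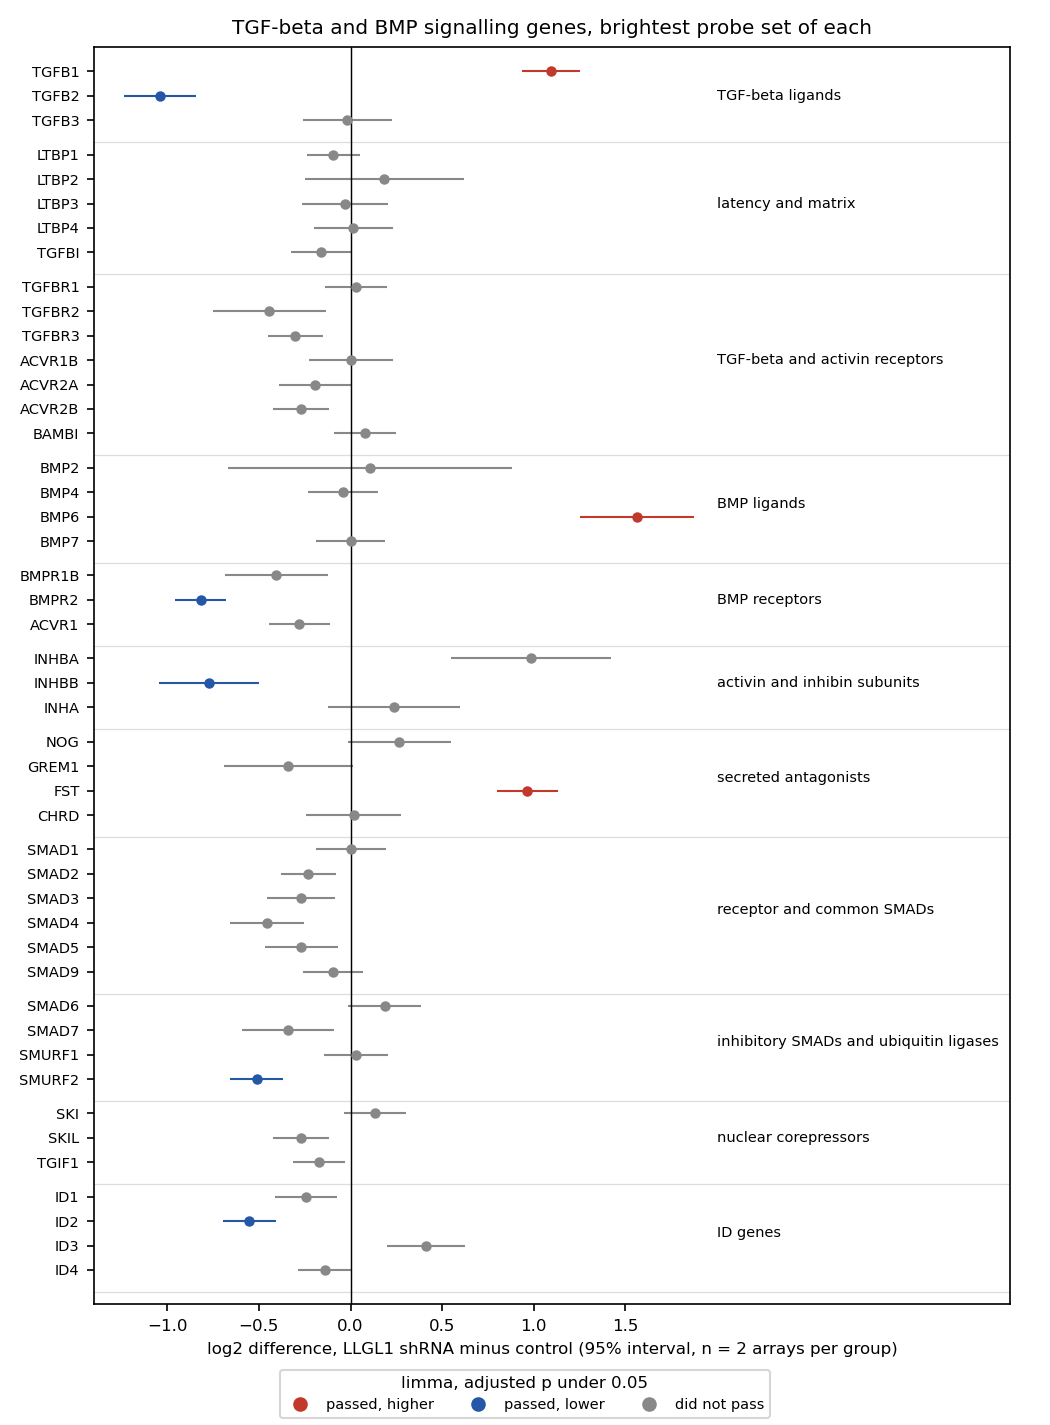
Log2 difference (LLGL1 shRNA minus control) of the brightest probe set of each gene with its 95% interval from limma (n = 2 arrays per group), ordered by role. TGFB1, BMP6 and FST (red) passed as higher and TGFB2, BMPR2, INHBB, SMURF2 and ID2 (blue) as lower, and most grey points among receptors and SMADs lie left of 0.

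The TGF-beta ligand genes went in opposite directions. TGFB1, the most widely expressed isoform, read 5.13 and 5.21 (log2 signal) on the control arrays and 6.26 and 6.27 on the LLGL1 shRNA arrays. Both LLGL1 shRNA arrays lay above both controls, by more than the arrays of a group differed. TGFB1 rose 2.13-fold (log2 1.09, SE 0.0569, limma adjusted p = 0.0227). Its dimmer probe set read 3.45 and 3.66 on the control arrays and 3.85 and 3.50 on the others, with overlapping groups and a difference of 0.12. Averaging both probe sets gave a TGFB1 difference of 0.60 (limma adjusted p = 0.041).

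TGFB2, an isoform with roles in organ development, read 7.14 and 7.22 on the control arrays and 6.08 and 6.19 on the LLGL1 shRNA arrays. The groups were well separated, and TGFB2 fell 2.06-fold (log2 -1.04, SE 0.0708, limma adjusted p = 0.0249). Of its other 4 probe sets the brightest read 5.23 and 5.40 against 4.23 and 4.35, a difference of -1.03 that did not pass when each probe set was tested alone (limma adjusted p = 0.0513). The remaining TGFB2 probe sets differed by -0.56, -0.06 and -0.08, from brighter to dimmer. Averaging all 5 gave -0.55 (limma adjusted p = 0.0239). TGFB3, the remaining isoform, overlapped between groups, with a 95% interval of -0.26 to 0.23 for its log2 difference.

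The promoter windows of the ligand genes that moved in opposite directions are shown because they differ in base composition. Each runs from 250 bases before to 50 after the annotated start in RefSeq (build GRCh38.p14), TGFB1 at chr19:41353873-41354172 on the minus strand and TGFB2 at chr1:218345086-218345385 on the plus strand. Capitals mark matches on either strand to GTCTG, the core of SMAD binding elements, and to GGGCGG, the GC box.
TGFB1: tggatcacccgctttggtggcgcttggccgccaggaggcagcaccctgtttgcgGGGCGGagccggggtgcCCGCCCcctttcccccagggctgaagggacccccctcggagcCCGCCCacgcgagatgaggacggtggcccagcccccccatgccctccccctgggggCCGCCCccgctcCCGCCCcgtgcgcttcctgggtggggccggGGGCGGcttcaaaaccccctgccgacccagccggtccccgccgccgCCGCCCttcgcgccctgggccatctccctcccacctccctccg
TGFB2: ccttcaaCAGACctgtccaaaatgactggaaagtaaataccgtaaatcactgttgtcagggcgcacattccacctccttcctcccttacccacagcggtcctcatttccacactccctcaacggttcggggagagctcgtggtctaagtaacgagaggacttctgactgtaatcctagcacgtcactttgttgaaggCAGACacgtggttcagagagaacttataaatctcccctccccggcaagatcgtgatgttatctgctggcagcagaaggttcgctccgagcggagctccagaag
The TGFB1 window was 77.3% G and C and held 7 matches to GGGCGG and 0 to GTCTG. The TGFB2 window was 51.7% G and C and held 2 matches to GTCTG and 0 to GGGCGG. Among the other genes that passed, G and C made up 66.0% for BMP6 and 63.7% for FST, which rose. For those that fell the share was 76.7% in BMPR2, 88.7% in INHBB, 79.3% in SMURF2 and 69.0% in ID2. Across 35116 windows of this length 45.3% held GTCTG and 45.0% GGGCGG. Other motifs searched were GGCGCC, a GC-rich element that BMP SMADs bind, held by 19.2% of windows, and the AP-1 element (TGANTCA), held by 7.71%, and both windows shown held neither. Windows were found for 43 of the 47 genes. No match overlapped one of another motif here, and a match describes letters only, not a bound site.

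**Figure D2:**
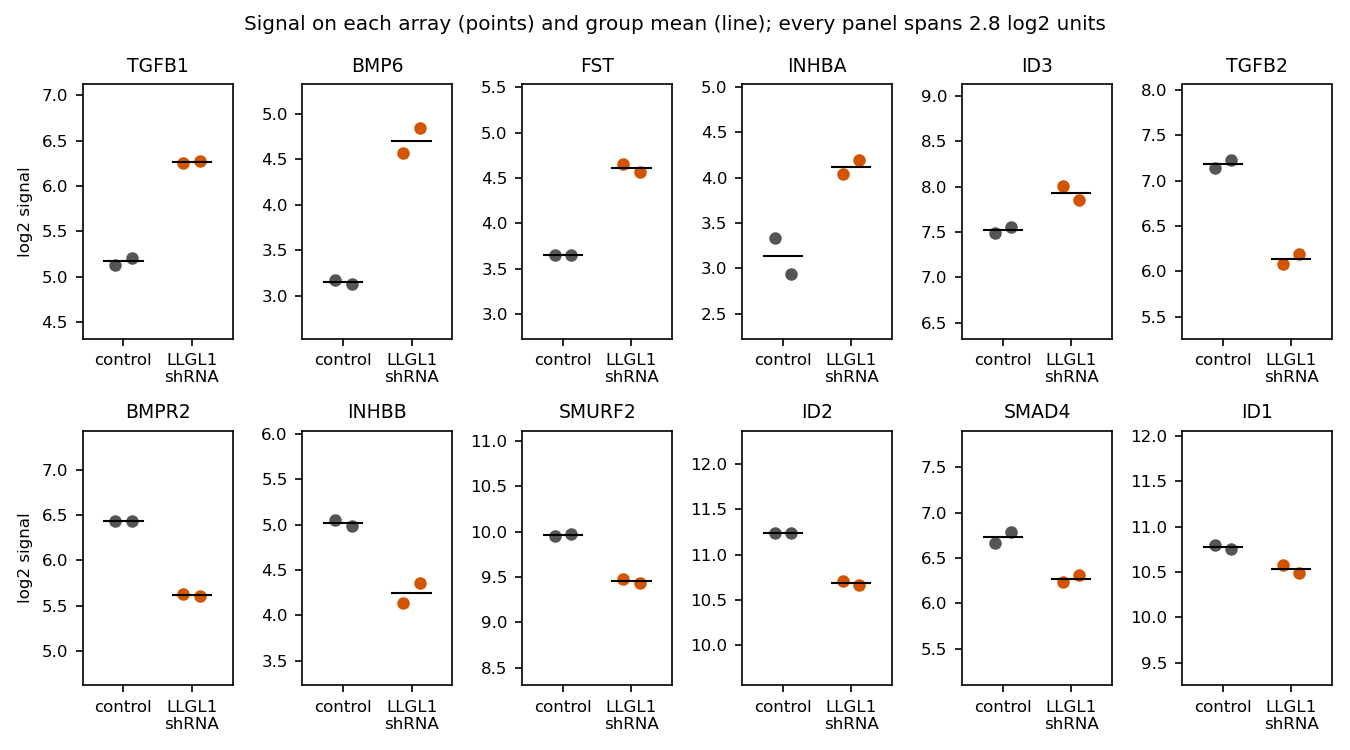
Log2 signal on each array (points, grey for control and orange for LLGL1 shRNA) and the group mean (line) for 12 genes, with panels of equal span. All 12 are among the 34 of 46 members whose groups did not overlap, so the groups are separated in each panel. Of all genes 52.4% did not overlap. The panels include TGFB1, BMP6 and FST as higher and TGFB2, BMPR2 and ID2 as lower.

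Genes for latency and matrix storage did not pass. LTBP1, LTBP2, LTBP3 and LTBP4, binding proteins that tether the latent ligand to matrix, differed by -0.09, 0.19, -0.03 and 0.02 on the log2 scale, or by -0.06, 0.06, -0.05 and 0.13 with probe sets averaged. In the brightest probe sets of these, LTBP1 alone had groups that did not overlap. The 95% interval of LTBP2, which lay near 3 on all arrays, was -0.25 to 0.62. A dimmer LTBP4 probe set lay higher on both LLGL1 shRNA arrays, by 0.44 (limma adjusted p = 0.103 with each probe set tested alone). A dimmer LTBP2 probe set lay lower on both, by -0.07. TGFBI, a matrix protein named for its induction by TGF-beta, read 8.11 and 8.20 on the control arrays and 8.00 and 8.00 on the others. Both of the latter lay lower, by -0.16 (limma adjusted p = 0.19).

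No receptor for TGF-beta or activin passed, although 4 of 7 lay lower on both LLGL1 shRNA arrays, as 24.7% of all genes and 38.2% of those with a mean of at least 5 did. TGFBR2, the type II receptor for TGF-beta, read 8.17 and 8.23 on the control arrays and 7.89 and 7.62 on the others, a log2 difference of -0.44 (95% interval -0.75 to -0.14, limma adjusted p = 0.098), or -0.26 with its probe sets averaged. TGFBR3, the coreceptor betaglycan, read 8.33 and 8.29 against 8.02 and 8.00. Its difference of -0.30 (limma adjusted p = 0.059) was close to that of its other probe set, -0.29. The activin type II receptors ACVR2A and ACVR2B differed by -0.19 and -0.27 (limma adjusted p = 0.191 and 0.0717), or by -0.12 and -0.11 with probe sets averaged. The type I receptors TGFBR1 and ACVR1B overlapped between groups, with 95% intervals of -0.14 to 0.20 and -0.23 to 0.23. BAMBI, a decoy receptor without a kinase domain, differed by 0.08 (limma adjusted p = 0.479).

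Among 4 BMP ligand genes BMP6 alone passed. BMP6, which in liver induces hepcidin, read 3.17 and 3.12 (log2 signal) on the control arrays and 4.57 and 4.85 on the LLGL1 shRNA arrays. The groups were far apart, and BMP6 rose 2.95-fold (log2 1.56, SE 0.111, limma adjusted p = 0.026), the largest difference among the 46 genes. Its other 2 probe sets lay below 3 on the arrays and differed by 0.11 and -0.06, and averaging the 3 gave 0.54 (limma adjusted p = 0.0252). BMP4, a patterning ligand, read 10.79 and 10.88 against 10.84 and 10.75. Its groups overlapped, with a 95% interval of -0.23 to 0.15, as did those of BMP7, a ligand needed for kidney development, with -0.19 to 0.19. BMP2, a bone-inducing ligand, lay below 3 on all arrays, and its interval was -0.67 to 0.88.

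All 3 measured BMP receptor genes lay lower on both LLGL1 shRNA arrays, as 24.7% of all genes and 38.2% of those with a mean of at least 5 did, and BMPR2 passed. The mean of BMPR1B lay below 5, so the latter share does not cover it. BMPR2, the type II receptor for BMPs, read 6.43 and 6.44 on the control arrays and 5.63 and 5.60 on the others. It fell 1.76-fold (log2 -0.82, SE 0.0504, limma adjusted p = 0.0246). The next brightest of its 6 probe sets read 4.71 and 4.78 against 3.63 and 3.87, a difference of -0.99 (limma adjusted p = 0.0533 with each probe set tested alone). The other 4 differed by -0.38 to 0.17, and averaging all 6 gave -0.32 (limma adjusted p = 0.0451). BMPR1B, a type I receptor, read 5.15 and 5.11 against 4.85 and 4.60, a difference of -0.40 (limma adjusted p = 0.0997). ACVR1, the type I receptor also called ALK2, differed by -0.28 (limma adjusted p = 0.0763).

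The activin subunit genes split in direction. INHBB, the beta B subunit, read 5.04 and 4.99 on the control arrays and 4.13 and 4.36 on the LLGL1 shRNA arrays. It fell 1.71-fold (log2 -0.77, SE 0.0976, limma adjusted p = 0.0393) in its only probe set. INHBA, the beta A subunit, read 3.33 and 2.94 on the control arrays and 4.04 and 4.19 on the others. Its groups did not overlap, and the difference of 0.98 did not pass (SE 0.156, limma adjusted p = 0.051). The dimmer INHBA probe sets differed by 0.63 and 0.28, and INHBA passed under 4 alternatives, among them median centring (limma adjusted p = 0.0116) and the average of its probe sets (log2 0.63, limma adjusted p = 0.0301). INHA, the inhibin alpha subunit, lay below 3 on all arrays and differed by 0.24 (limma adjusted p = 0.333).

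Of the secreted antagonists FST passed. FST, follistatin, binds and neutralises activins, and read 3.65 and 3.65 on the control arrays and 4.66 and 4.57 on the LLGL1 shRNA arrays. It rose 1.95-fold (log2 0.96, SE 0.0596, limma adjusted p = 0.0246). Its deposited control values are equal to the last digit, so the SD there is 0 before moderation. Both other FST probe sets also lay higher on the LLGL1 shRNA arrays. The brighter one read 2.31 and 1.34 against 3.70 and 3.74, a difference of 1.89, and the dimmer one differed by 0.54. Averaging the 3 gave 1.13 (limma adjusted p = 0.0292). The BMP antagonists NOG and GREM1 lay below 3 on all arrays and differed by 0.27 and -0.34 (limma adjusted p = 0.193 and 0.188), GREM1 by -0.17 with its probe sets averaged. CHRD, chordin, overlapped between groups, with a 95% interval of -0.24 to 0.28.

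**Figure D3:**
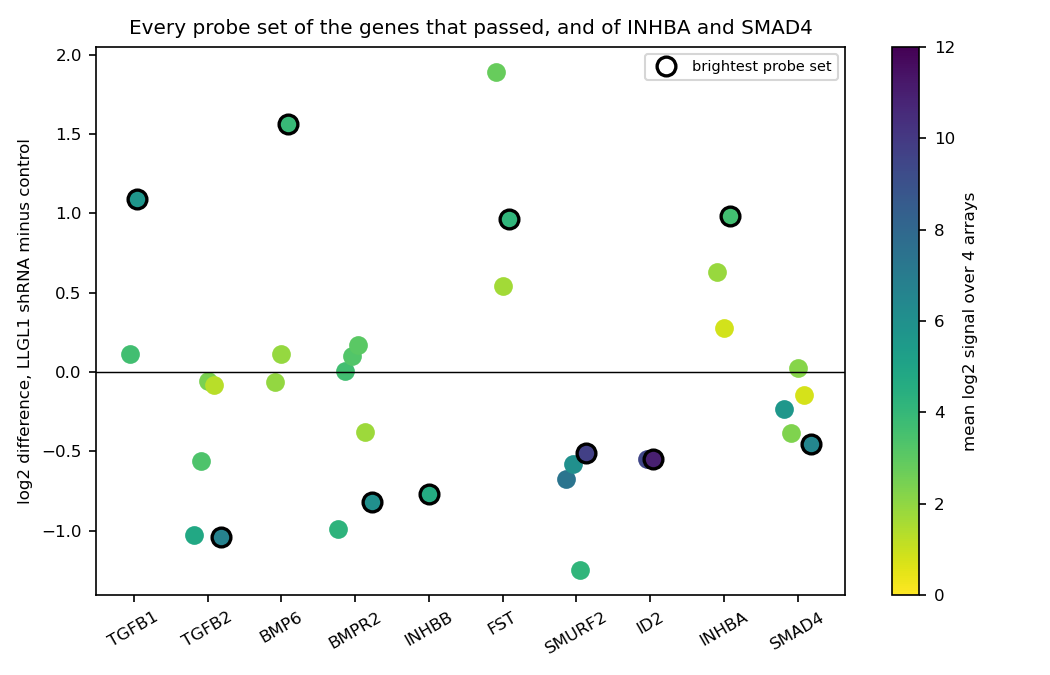
Log2 difference (LLGL1 shRNA minus control) of every probe set of the 8 genes that passed and of INHBA and SMAD4, with colour for the mean log2 signal and a black ring on the brightest probe set. All probe sets of FST, INHBA, SMURF2 and ID2 lie on 1 side of 0, whereas dim ones of TGFB1, TGFB2, BMP6 and BMPR2 lie near it.

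Of 6 genes for receptor and common SMADs, 5 lay lower on both LLGL1 shRNA arrays, as 24.7% of all genes and 38.2% of those with a mean of at least 5 did, and none passed. The mean of SMAD9 lay below 5, so the latter share does not cover it. The median difference of the 6 was -0.25, and -0.09 with probe sets averaged. SMAD4, the partner of the receptor SMADs, read 6.67 and 6.79 on the control arrays and 6.23 and 6.31 on the others. Its log2 difference was -0.46 (95% interval -0.66 to -0.26, limma adjusted p = 0.0503). SMAD4 passed under 5 alternatives, median centring among them (limma adjusted p = 0.0274), and not with the average of its 5 probe sets (log2 -0.24, limma adjusted p = 0.0697). SMAD2 and SMAD3, the mediators of TGF-beta and activin, differed by -0.23 and -0.27 (limma adjusted p = 0.0872 and 0.0975). With probe sets averaged SMAD2 was at -0.14 and SMAD3 at -0.02. SMAD5, a BMP mediator, read 8.16 and 8.12 against 7.80 and 7.94, a difference of -0.27 (limma adjusted p = 0.11). SMAD1 overlapped, with an interval of -0.19 to 0.19, and SMAD9 differed by -0.09, or -0.04 averaged. Both also mediate BMP signals.

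Among the negative regulators SMURF2 passed. SMURF2, a ubiquitin ligase that marks receptors and SMADs for degradation, read 9.95 and 9.98 on the control arrays and 9.47 and 9.43 on the LLGL1 shRNA arrays. It fell 1.43-fold (log2 -0.51, SE 0.0524, limma adjusted p = 0.0343). Its other 3 probe sets were lower too, by -0.67, -0.58 and -1.25. The last read 4.79 and 4.79 against 3.50 and 3.59 and passed when each probe set was tested alone (limma adjusted p = 0.035), as 6 of 132 member probe sets and 0.83% of all probe sets did. SMURF1, the related ligase, overlapped between groups, with a 95% interval of -0.15 to 0.20 and a difference of 0.14 over the average of its probe sets. SMAD7, an inhibitory SMAD induced by TGF-beta, read 6.81 and 6.74 against 6.53 and 6.33, a difference of -0.34 (limma adjusted p = 0.108), and the other inhibitory SMAD, SMAD6, differed by 0.19 (limma adjusted p = 0.197), or 0.10 averaged. The corepressor SKIL read 6.22 and 6.24 against 5.92 and 5.99, a difference of -0.27 (limma adjusted p = 0.0717). The corepressors TGIF1 and SKI differed by -0.17 and 0.13 without passing. With probe sets averaged SKIL was at -0.16, TGIF1 at -0.02 and SKI at 0.04.

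The ID genes, inhibitors of bHLH factors and textbook targets of BMP signalling, did not share 1 direction. ID2 read 11.24 and 11.24 on the control arrays and 10.71 and 10.67 on the LLGL1 shRNA arrays. It fell 1.47-fold (log2 -0.55, SE 0.0521, limma adjusted p = 0.0329). Its second probe set differed by -0.55, and one annotated to both ID2 and ID2B by -0.75. ID1 read 10.79 and 10.76 against 10.58 and 10.49, lower on both arrays by -0.24 without passing (limma adjusted p = 0.0993). ID3 read 7.49 and 7.55 on the control arrays and 8.01 and 7.86 on the others, higher on both. Its difference of 0.41 did not pass (limma adjusted p = 0.0625) but did after median centring (limma adjusted p = 0.0464) and cyclic loess (limma adjusted p = 0.0294). ID4 differed by -0.14 in its brightest probe set and by -0.12 to 0.50 in dimmer ones, all below 3.

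The promoter windows of ID1 and ID2, lower on both arrays, are shown beside that of ID3, which lay higher. They are RefSeq windows of the same kind and build, ID1 at chr20:31605039-31605338 (plus strand), ID2 at chr2:8681806-8682105 (plus strand) and ID3 at chr1:23559452-23559751 (minus strand), with the same capitals.
ID1: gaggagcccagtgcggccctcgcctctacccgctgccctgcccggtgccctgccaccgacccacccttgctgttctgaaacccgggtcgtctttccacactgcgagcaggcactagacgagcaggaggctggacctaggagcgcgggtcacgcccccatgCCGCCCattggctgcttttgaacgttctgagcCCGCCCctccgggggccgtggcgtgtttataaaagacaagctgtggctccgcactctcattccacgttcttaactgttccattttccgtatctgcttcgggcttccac
ID2: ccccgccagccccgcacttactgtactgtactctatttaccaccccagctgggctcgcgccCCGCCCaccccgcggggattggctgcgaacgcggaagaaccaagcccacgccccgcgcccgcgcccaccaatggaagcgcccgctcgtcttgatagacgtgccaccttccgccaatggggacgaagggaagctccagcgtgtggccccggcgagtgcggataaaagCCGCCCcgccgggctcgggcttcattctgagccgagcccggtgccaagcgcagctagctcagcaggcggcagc
ID3: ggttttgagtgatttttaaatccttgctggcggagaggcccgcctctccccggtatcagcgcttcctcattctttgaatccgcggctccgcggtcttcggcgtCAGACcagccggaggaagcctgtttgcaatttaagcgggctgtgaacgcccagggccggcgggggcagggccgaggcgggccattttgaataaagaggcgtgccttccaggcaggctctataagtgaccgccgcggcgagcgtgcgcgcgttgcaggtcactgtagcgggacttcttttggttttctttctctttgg
The ID1 and ID2 windows each held 2 matches to GGGCGG and 0 to GTCTG. The ID3 window held 1 match to GTCTG and 0 to GGGCGG. The BMP SMAD and AP-1 motifs named above were in none of the 3. Of 81 windows of the listed genes 48 (59.3%) held GGGCGG, and any relation of motifs to direction was not tested. Among the genes that passed but are not shown, GGGCGG was in the windows of BMP6 (2 matches) and FST (3), which rose. It was also in those of BMPR2 (3), INHBB (10) and SMURF2 (5), which fell. GTCTG was in the windows of BMPR2 (4) and SMURF2 (1) and not in those of BMP6, FST and INHBB.

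Further ligands, receptors, antagonists, activators, regulators and targets of the pathway were listed, 110 of 120 of them measured. Of these 9 rose and 10 fell in limma, against 3.21% and 3.07% of all genes, and their median log2 difference was 0.01. FSTL1, a secreted follistatin-like glycoprotein, read 3.92 and 3.34 on the control arrays and 6.26 and 6.11 on the LLGL1 shRNA arrays. It rose by 2.55 on the log2 scale (limma adjusted p = 0.0318), or by 0.97 with its 3 probe sets averaged. Of the 12 further antagonists, which include FSTL1, the BMP-binding protein TWSG1 fell (-0.50, limma adjusted p = 0.0408), and DAND5 differed by 0.26. Of 19 further ligands the activin C subunit INHBC fell (-0.53, limma adjusted p = 0.0498) but did not pass with its probe sets averaged (-0.22), and GDF11 (0.33, or 0.20 averaged) and GDF9 (0.30) did not pass. None of 10 further receptors passed, the largest differences being those of ACVR1C (-0.37), ENG (0.34, or 0.08 averaged) and CD109 (0.26).

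Of 12 genes that help to release TGF-beta from its latent complex, 2 fell and 0 rose, against 3.07% and 3.21% of all genes, with a median of -0.17. ITGB8, an integrin subunit that takes part in this release, read 6.10 and 6.22 on the control arrays and 5.19 and 5.38 on the others, a difference of -0.88 (limma adjusted p = 0.0351). With its 5 probe sets averaged the ITGB8 difference was -0.20 and did not pass. The urokinase gene PLAU fell (-0.68, limma adjusted p = 0.0288), and ITGAV, the alpha subunit that pairs with ITGB8, differed by -0.36 without passing. Among 22 further intracellular regulators the kinase SIK1 (1.14), the EMT factor ZEB1 (1.34) and FKBP1A (0.44), which binds type I receptors, rose, and the kinase HIPK2 (-0.52) fell. ZEB1 had equal values on both control arrays, 1.58, so its SD there is 0 before moderation, and its group means lay below 3. With probe sets averaged ZEB1 and HIPK2 did not pass, at 0.51 and -0.06, and SIK1 passed at 0.59.

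Textbook targets of TGF-beta and SMAD3 moved both ways: 5 of 22 rose and 4 fell, against 3.21% and 3.07% of all genes, with a median of 0.07. The 22 include LTBP2, described above. Those that rose were the intermediate filament VIM (2.49), the matricellular CCN2 (1.56), the basement membrane collagen COL4A1 (1.22), the EMT factor SNAI2 (0.90) and fibronectin FN1 (0.90). With probe sets averaged VIM was at 1.28, COL4A1 at 0.79 and FN1 at 0.52, all still passing, and SNAI2 lay below 3 on every array. Those that fell were ANGPTL4 (-1.21), the protease inhibitor TIMP3 (-0.92), BHLHE40 (-0.53) and the chromatin factor HMGA2 (-0.50), the last not passing with its probe sets averaged (-0.19). Of 15 targets of BMP SMADs, SNAI2, in both lists, rose and the transcription factor TBX3 (-0.53) fell, though not with its probe sets averaged (-0.22). HES1 differed by -0.35 (limma adjusted p = 0.0997), or -0.21 averaged, and the median of the BMP targets was -0.06.

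**Figure D4:**
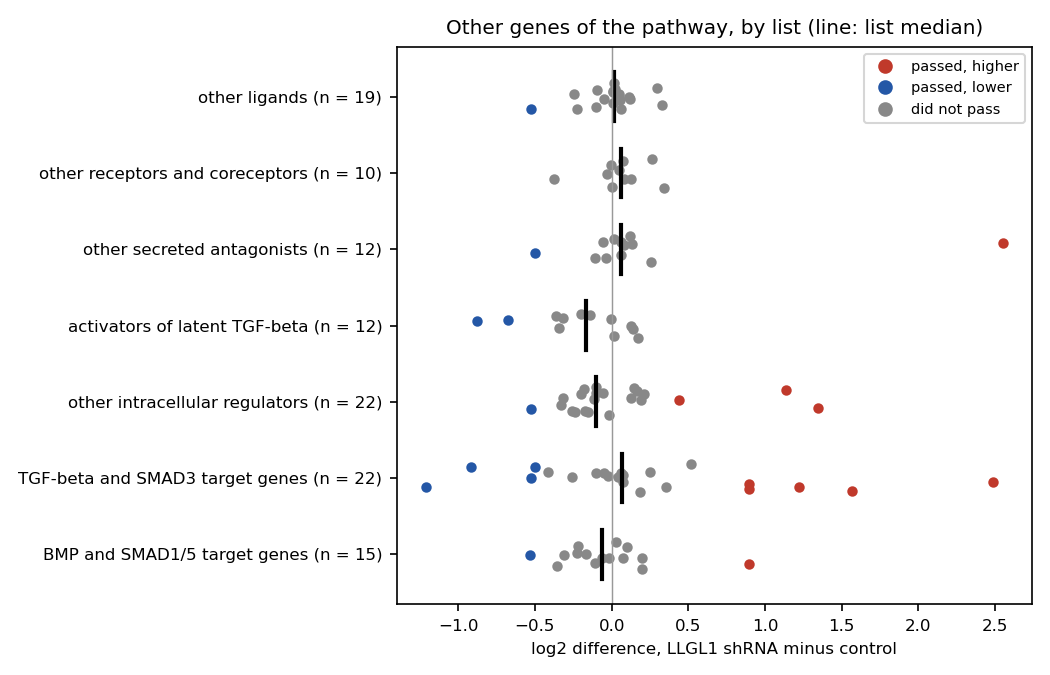
Log2 difference (LLGL1 shRNA minus control) of other genes of the pathway, 1 point per gene, by list, with a black line at the list median and vertical spread for legibility only. List medians lie between -0.17 and 0.07, and the targets of TGF-beta and SMAD3 hold 5 genes that passed as higher and 4 as lower.

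The authors' deposited table lists 294 probe sets that differ at least 2-fold, 6 of them of 5 of these genes. In the authors' deposited table the ratio of LLGL1 shRNA over control is 2.13 for TGFB1 (unadjusted p = 0.00128), 2.95 for BMP6 (0.00787) and 3.71 for a dimmer FST probe set (0.0598). The authors' deposited table gives 0.486 and 0.490 for probe sets of TGFB2 and 0.421 for a dimmer SMURF2 probe set.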

How the data were processed

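Total RNA for 4 arrays was labelled as biotinylated cRNA, per the labels' protocols. The deposited values are log2 signals of 54675 probe sets, made with RMA and Partek 6.6, per the submitters' processing notes. The authors' deposited table holds unadjusted p-values, linear ratios, signed fold changes and an F statistic, a score, per its column names and the file headers.

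Probe sets took their symbols from the platform annotation. Those with several symbols (1801), none (11777) or a control role (62) stayed out of the gene test. For each of 19775 genes the brightest probe set was tested in limma 3.58.1 (R 4.3.3), lmFit then eBayes with default priors, two-sided, adjusted by Benjamini-Hochberg over all genes, with 0.05 as the threshold. Residual degrees of freedom were 2 and prior ones 1.94. The number of arrays limits the precision, and p-values measure only the spread between these arrays, which may be technical. Replicate arrays correlated at 0.997 across probe sets. Across the 19775 genes, deviations of the 2 replicate 1 arrays from their group means correlated at r = -0.13. Those of replicate 2 are the same values with opposite sign. This correlation does not show that the numbers pair the arrays.

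All 46 measured genes are named, and from each further list the 3 largest differences, those past the threshold first. FKBP1A, FN1, SNAI2 as a TGF-beta target, ANGPTL4, TIMP3, BHLHE40, HMGA2 and the 3 epithelial markers were named after their values were seen. Genes and lists were chosen with earlier results of these data known. RefSeq promoter windows were searched on both strands for 4 motifs. On simulated data of this design (19775 genes, 5 runs) 0.4% of genes changed 1.5-fold were recovered. The recovered share was 50% at 2-fold and 88.4% at 4-fold. The runs together held only 250 changed genes at each fold. In the real data 28.1% of genes had an unadjusted p below 0.05 in limma. Recovery after adjustment depends on the share of changed genes, so these percentages do not describe the real comparison.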

Additional observations from a re-analysis of the deposited data

How the results depend on the processing

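The 8 genes that passed kept their direction in each alternative run, and kept their calls with median centring, cyclic loess, trend and robust moderation, and probe sets averaged. All genes, members and member probe sets gave 1242, 8 and 6 calls. The counts were 3935, 23 and 37 with trend and robust moderation, 3939, 19 and 26 at a mean log2 of at least 5, 3984, 20 and 32 in the brighter part, 1881, 11 and 22 with median centring and 2096, 11 and 21 with cyclic loess. With probe sets averaged 1210 genes and 9 members passed. With each probe set tested on its own 341 passed, and 5 members in their brightest one, without INHBB (limma adjusted p = 0.0586), SMURF2 (0.0543) and ID2 (0.053). An adjusted p below 0.01 left 13 genes and 0 members (23 at an unadjusted p below 0.05 in limma), and 2-fold with 0.05 left 127 and 3.

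With the replicate block limma called 0, 0 and 0 (4284, 23 and 42 at an unadjusted p below 0.05). A crossed replicate block, chosen after seeing the data, called 0, 0 and 0 (5520, 24 and 44 unadjusted). Without any 1 array limma called 0 to 0 in each case (3496 to 4546, 17 to 22 and 30 to 38 unadjusted), the lone array of a group being assumed to vary like the other group.

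Signs turned in genes that did not pass. With probe sets averaged LLGL1 was at 0.0079, TGFB3 at 0.0149, CHRD at -0.0416, SMAD1 at -0.0152 and ID4 at 0.0814. After median centring ACVR1B was at -0.0032, BMP7 at -0.0061 and SMAD1 at -0.0046. Without any 1 array the differences ran from -0.1167 to 0.0827 for TGFB3, -0.0028 to 0.3732 for LTBP2, -0.1256 to 0.0654 for LTBP3, -0.0672 to 0.0974 for LTBP4, -0.0158 to 0.0796 for TGFBR1, -0.0881 to 0.0938 for ACVR1B, -0.247 to 0.462 for BMP2, -0.0878 to 0.0056 for BMP4, -0.055 to 0.055 for BMP7, -0.0687 to 0.103 for CHRD, -0.0605 to 0.0634 for SMAD1, -0.0123 to 0.0698 for SMURF1 and -0.014 to 0.6069 for GDF9. The cause was not tested. The files give no detection call, so no probe set's distance from background is known.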
